A study of Mus musculus with 21 samples.

Results

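The comparison described here set E14 mouse embryonic stem (ES) cells cultured for 3 days with vitamin B6 (VB6), given as pyridoxine at 20 µM, against the same line cultured for 3 days with vehicle. It rests on 6 of the 21 RNA-seq libraries of the series, 3 per arm, chosen by treatment and day. At this day the arms had like fragment lengths. E14 is a single established line that was derived from early mouse blastocysts. The other groups, also of 3 libraries each, are untreated ES cells in standard culture and both arms at days 5 and 7. The series title names endoderm differentiation by way of glycolysis and lactylation of histone H3 as the subject. The medium, the way differentiation was started and whether the replicates were separate cultures are not stated in the labels. The p-values below therefore measure only a spread between libraries, which may be technical. For edgeR that spread was estimated over all 21 libraries, not over the 6 compared.

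Pyridoxine is taken up by cells and converted to pyridoxal phosphate, the cofactor of aminotransferases, serine hydroxymethyltransferases, amino acid decarboxylases and glycogen phosphorylases. ES cells in standard culture hold a naive pluripotent state. On leaving it they pass through a formative, epiblast-like state driven by FGF and ERK signalling, from which definitive endoderm, mesoderm and neural ectoderm arise. Visceral endoderm, a separate lineage that surrounds the embryo, secretes apolipoproteins and transport proteins. Lactate made by glycolysis can be attached to histone lysines, a mark called lactylation.

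The 6 libraries held 17211701 to 21629730 expected counts each. Levels are given as CPM, counts scaled to a common library size with edgeR. Where a library has a count of 0, the limit is 3 counts, equal to 0.139 to 0.174 CPM in these libraries, and it covers counting error only. One library stood apart. By the median absolute log2 difference over genes, vehicle replicate 1 was 0.132 and 0.137 away from the other vehicle libraries, and 0.124 to 0.135 away from the VB6 libraries. Vehicle replicates 2 and 3 were 0.105 from each other and 0.161 to 0.182 from VB6, and the VB6 libraries were 0.0891 to 0.101 apart. Vehicle replicate 1 also lay between the other vehicle libraries and the VB6 arm in the share of ribosomal protein reads (6.70% against 6.13% in both other vehicle libraries and 6.87 to 7.14% with VB6) and of mitochondrially encoded reads (2.57% against 2.34 and 2.36%, and 2.65 to 2.94% with VB6). The mean GC content of counted genes was 49.2 to 49.5% in vehicle and 49.1 to 49.2% with VB6. The arms did not overlap in these 3 properties, and their part in the results below was not tested. Fragment lengths derived from the deposited values were 308 to 316 nt in vehicle and 307 to 313 nt with VB6.

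**Figure D1:**
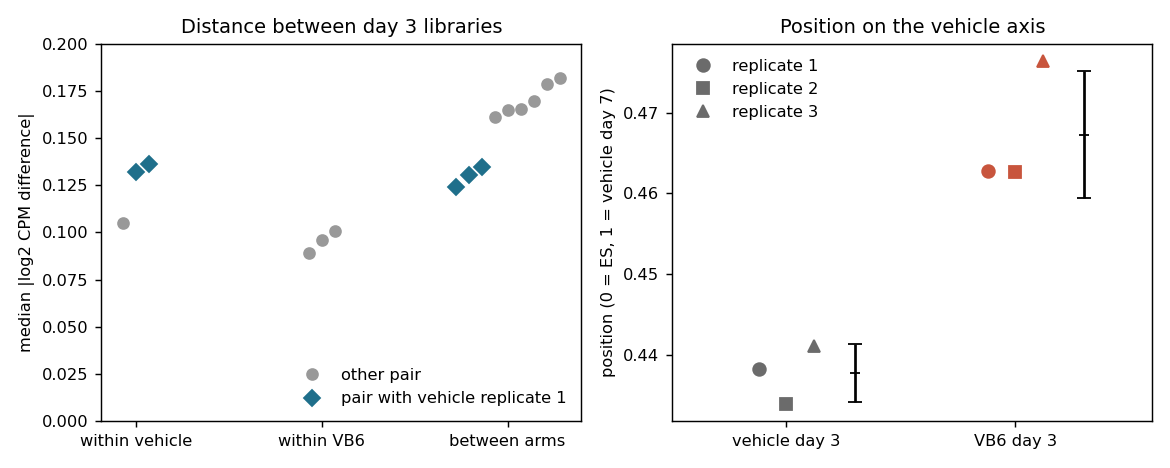
Left, median absolute log2 CPM difference between each pair of the 6 day 3 libraries, with pairs that include vehicle replicate 1 as diamonds. Right, position of each library on the axis from ES cells (0) to vehicle day 7 (1), with mean ± SD per arm (n = 3). Vehicle replicate 1 was as far from the vehicle libraries (0.132 and 0.137) as from the VB6 libraries (0.124 to 0.135), and the VB6 libraries (0.463, 0.463 and 0.476) lay above the vehicle libraries (0.434 to 0.441).

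The labels were checked against marker genes. The 5 pluripotency markers summed to 2076 to 2309 CPM in vehicle and 1985 to 2045 CPM with VB6. The 4 epiblast markers (Fgf5, Otx2, Pou3f1 and Dnmt3b) summed to 2240 to 2514 and 2069 to 2248 CPM. The 6 visceral endoderm markers summed to 511 to 596 and 541 to 590 CPM. Definitive endoderm markers (Sox17, Foxa2, Cxcr4 and Gsc) reached 10.2 to 12.7 CPM in vehicle and 8.92 to 11.0 CPM with VB6, mesoderm markers 1.94 to 2.32 and 1.38 to 1.88 CPM, and neural markers 3.26 to 3.71 and 2.32 to 2.50 CPM. Feeder fibroblast markers summed to 21.2 to 24.3 and 24.6 to 28.5 CPM. Of these 6, Thy1, which ES cells also express, went from 13.4 ± 0.955 to 19.3 ± 1.34 CPM (SD, n = 3 per arm), and its part in other results was not tested. Its own call ended without VB6 replicates 1 or 2 or vehicle replicates 2 or 3. The other feeder markers did not rise. Col1a1, Col1a2 and Dcn had log2 fold changes (VB6 minus vehicle) of -0.32, -0.15 and -0.44 and were not called. Col3a1 and Postn had counts in vehicle replicate 1 only. In bulk RNA, fewer cells of a type and less RNA per cell cannot be told apart.

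The first question was how many genes differed between the arms. With edgeR's quasi-likelihood test over all 21 libraries and Benjamini-Hochberg adjustment over 18901 genes, 805 genes passed an adjusted p of 0.05 (4.26%), and these are the genes called below. VB6 was higher for 281 of them (1.49%) and lower for 524 (2.77%). List counts below are to be read beside these shares. The median log2 fold change (VB6 minus vehicle throughout) was 0.36 among the higher and -0.44 among the lower genes, against -0.01 over all genes tested. Of all genes tested, 9022 had a positive and 9837 a negative value. Only 47 called genes differed by a log2 of 1 or more in size, and 530 differed by less than 0.5. The libraries of the arms did not overlap for 803 of the 805, as for 5495 of all genes (29.1%). Protein-coding genes made up 709 of the calls, and long noncoding RNAs 60 of the 2930 tested.

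The count depended on single libraries. Leaving out vehicle replicate 2 left 192 genes called, vehicle replicate 3 left 366, and VB6 replicates 1, 2 and 3 left 253, 294 and 398, whereas leaving out vehicle replicate 1 gave 850, of which 623 were among the 805. Limma on log2(TPM + 0.5) called 253 genes, 57 higher and 196 lower. Only 53 genes, 2 higher and 51 lower, passed a test against a fold of 1.2. With only the 6 day 3 libraries 2104 of 16536 genes were called. Without the filter on low counts 1393 of 43503 were called, and after correction for GC content and length 1178 of 17193. A list count under any of these settings is to be read beside the total of that setting.

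The genes with the largest falls were of several kinds and at low levels. Arms without overlap were a condition for the 12 highest and 12 lowest genes, so their separation was set by the choice. Gbx2, a homeobox factor of naive ES cells and later of the midbrain-hindbrain boundary (ENSMUSG00000034486, mm10 chromosome 1, 89927956 to 89931179, minus strand), was at 4.41, 5.72 and 4.16 CPM in the vehicle libraries and at 1.31, 1.2 and 2.03 CPM with VB6. The arms did not overlap, and the log2 fold change was -1.64 ± 0.32 (SE, adjusted p = 0.00525, edgeR). Cilp2, a cartilage matrix protein (chromosome 8, 69880369 to 69887687), was at 5.06, 6.56 and 4.90 CPM against 1.66, 2.17 and 1.63 CPM (-1.59 ± 0.22, adjusted p = 0.000207). Every VB6 library was again below every vehicle library. Grm6, a metabotropic glutamate receptor, fell from 3.33 ± 0.871 to 1.10 ± 0.384 CPM (-1.58 ± 0.30) and Robo4, an endothelial guidance receptor, from 4.67 ± 0.311 to 1.82 ± 0.339 CPM (-1.36 ± 0.24). The zinc finger factor Sall3 fell from 7.72 ± 1.61 to 3.39 ± 0.842 CPM (-1.17 ± 0.21). These 5 genes kept their call under each of the 16 alternative analyses.

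The other genes among the 12 lowest were less secure. The protocadherin Pcdh8 went from 4.08 ± 1.03 to 1.71 ± 0.440 CPM. Skor1, Dmrta2, Rapgef3, Kash5 and Muc19 were at means of 1.13 to 1.94 CPM in vehicle and 0.371 to 0.848 CPM with VB6. Each of the 6 lost its call when at least 3 of the 6 libraries were left out in turn. Cwc22rt6, a copy of the splicing factor gene Cwc22 whose reads may be shared with its parent, was at 5.06, 6.2 and 3.32 CPM in vehicle and at 0, 0.241 and 0 CPM with VB6. No fold is given for it, since its fitted value moved from -5.71 to as low as -9.46 with 1 library left out.

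Among the genes that rose most, only 1 kept its call under every alternative. Sycp3, a component of the meiotic synaptonemal complex (chromosome 10, 88459569 to 88473236), was at 57.2, 45.0 and 52.5 CPM in vehicle and 79.6, 89.7 and 76.8 CPM with VB6. All VB6 libraries were above all vehicle libraries, with a log2 fold change of 0.67 ± 0.11 (adjusted p = 0.00115, edgeR). Myl9, a regulatory light chain of smooth muscle myosin, was at 6.0, 7.52 and 7.37 CPM against 10.5, 11.3 and 11.3 CPM (0.66 ± 0.13, adjusted p = 0.00569), and lost its call only in the test against a fold of 1.2. The lysosomal channel Mcoln3 rose from 5.50 ± 1.54 to 9.59 ± 0.607 CPM (0.79 ± 0.15). Hdac9, a class IIa histone deacetylase, rose from 2.60 ± 0.181 to 4.70 ± 0.321 CPM (0.85 ± 0.20), and its call ended without VB6 replicates 2 or 3 or vehicle replicates 2 or 3.

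The other genes with large rises included some of the lowest levels. The GABA receptor subunit Gabrp was at 0.706, 0.722 and 0.526 CPM in vehicle and 1.43, 2.17 and 1.58 CPM with VB6 (1.41 ± 0.34), and Fam110c went from 0.995 ± 0.312 to 2.20 ± 0.0730 CPM (1.14 ± 0.27). The arms of both did not overlap, as the choice required. Crabp2, which carries retinoic acid to its receptor, rose from 4.80 ± 0.128 to 7.81 ± 0.927 CPM (0.70 ± 0.19). Chrnb1, Pts and Rgs10 had log2 fold changes of 0.65 to 0.71. The calls of Gabrp, Fam110c, Crabp2, Chrnb1, Pts and Rgs10 each ended without VB6 replicate 2 and without vehicle replicates 2 or 3, and for all but Gabrp also without VB6 replicate 1. mt-Nd3, a mitochondrially encoded subunit of complex I, was at 96.2, 107 and 65.6 CPM in vehicle and 145, 138 and 149 CPM with VB6 (0.69 ± 0.14). It lost its call without vehicle replicate 3. It was the only one of 13 mitochondrially encoded genes called (9 without the filter and 8 with only the 6 libraries), and 11 of the 13 had a positive value, in libraries whose share of mitochondrially encoded reads did not overlap between the arms.

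**Figure D2:**
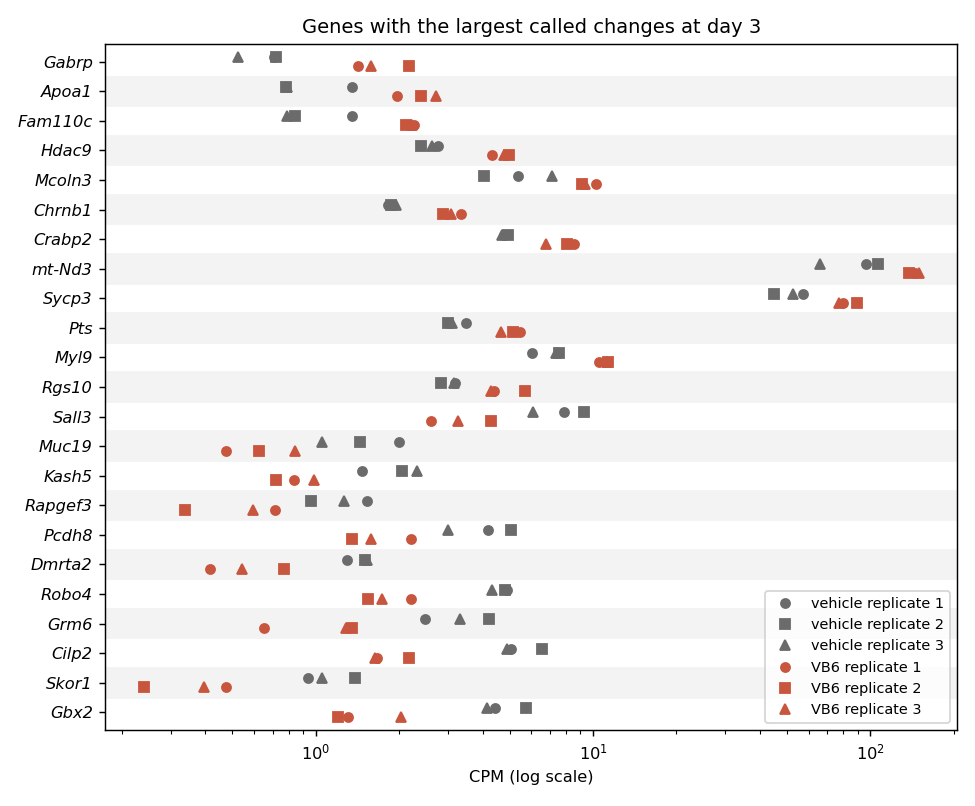
CPM (log scale) of the 23 genes with the largest called changes, by library, grey for vehicle and red for VB6, with a marker shape per replicate. Cwc22rt6, at 0 in 2 VB6 libraries, is not drawn. Arms without overlap were a condition of the choice, and most of the genes lay below 10 CPM.

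The smallest p-values belonged to genes at higher levels that fell by a log2 of 0.51 to 1.0. Zfp428, a zinc finger protein (chromosome 7, 24507006 to 24515682), was at 36.9, 40.7 and 35.0 CPM in vehicle and 17.2, 18.7 and 20.1 CPM with VB6. Each VB6 library was below each vehicle library (-1.0 ± 0.09, adjusted p = 1.93e-06, edgeR). Upp1, a uridine phosphorylase (chromosome 11, 9118103 to 9136170), was at 259, 258 and 257 CPM in vehicle and 178, 189 and 173 CPM with VB6 (-0.52 ± 0.06, adjusted p = 3.71e-05). Its vehicle libraries were almost level, including replicate 1. Basp1, a membrane protein of growth cones, fell from 212 ± 23.3 to 122 ± 6.32 CPM (-0.80 ± 0.09), and Tle4, a Groucho corepressor, from 184, 208 and 178 CPM to 122, 129 and 132 CPM (-0.57 ± 0.07). Zfp532, the SUMO protease Senp3, Mllt6 and Cnpy1, which acts in FGF signalling, completed the 8. All 8 kept their call under each of the 16 alternatives.

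Abundant genes moved little. Hsp90aa1, the stress-inducible HSP90, was at 3592, 3695 and 3604 CPM in vehicle and 3166, 3252 and 3268 CPM with VB6, a log2 fold change of -0.17 ± 0.04. The difference was small but larger than the spread in either arm. Trim28, a corepressor of endogenous retroviruses, fell from 1393 ± 91.1 to 1085 ± 24.4 CPM (-0.36 ± 0.07), and the ubiquitin ligase Mkrn1 from 1250 ± 39.4 to 1045 ± 9.46 CPM (-0.26 ± 0.05). H3f3b, a gene for histone H3.3, rose from 628 ± 5.71 to 743 ± 34.0 CPM (0.24 ± 0.06), and Tomm20, a mitochondrial import receptor, from 513 ± 25.5 to 618 ± 12.8 CPM (0.27 ± 0.06). The calls of Hsp90aa1, H3f3b and Tomm20 ended without VB6 replicate 2 or vehicle replicate 2, those of Hsp90aa1 and Tomm20 also without VB6 replicate 1, and that of H3f3b without vehicle replicate 3.

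Pluripotency genes were lower with VB6 in each of 3 lists, which differ in the state they mark. Of 14 general pluripotency genes 0 were higher and 8 lower (median -0.32), of 14 naive genes 0 and 5 (median -0.38), and of 15 formative and epiblast genes 0 and 6 (median -0.26), against 1.49% higher and 2.77% lower among all genes. Every naive and formative member had a negative value. Among the naive genes, Klf2, a Krüppel-like factor that sustains self-renewal, was at 36.6, 51.4 and 53.2 CPM in vehicle and 25.0, 25.6 and 23.5 CPM with VB6. Vehicle replicate 1 was nearest to the VB6 arm, without overlap (-0.93 ± 0.15, adjusted p = 0.00122, edgeR). Tcl1, an AKT cofactor, went from 8.47 ± 0.225 to 5.44 ± 0.515 CPM (-0.63 ± 0.11) and the nuclear receptor gene Nr0b1 from 17.5 ± 2.41 to 11.7 ± 0.448 CPM (-0.58 ± 0.14). Esrrb, a naive factor, did not pass at 56.2 ± 3.70 and 54.3 ± 3.51 CPM.

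The core factors did not move alike. Pou5f1, which encodes Oct4, was at 858, 933 and 859 CPM in vehicle and 724, 756 and 743 CPM with VB6, without overlap, and missed the threshold (-0.25 ± 0.08, adjusted p = 0.0570, edgeR), passing it in 6 alternatives. Sox2 was at 195, 245 and 213 CPM against 165, 154 and 163 CPM and passed (-0.44 ± 0.10, adjusted p = 0.0160), a call that ended without VB6 replicates 1 or 2 or vehicle replicate 2. Nanog was at 129, 129 and 136 CPM against 152, 153 and 134 CPM, with overlapping arms (0.16 ± 0.08, adjusted p = 0.296). Oct4 and Sox2 bind DNA together, and Nanog shares many of their sites. The catalytically inactive DNA methyltransferase cofactor Dnmt3l fell from 400 ± 26.2 to 294 ± 11.9 CPM (-0.45 ± 0.06), and Cripto, the Nodal coreceptor, from 572 ± 16.0 to 434 ± 9.99 CPM (-0.40 ± 0.07).

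The 6 formative genes called included Tcf15, Pou3f1, Lef1 and Dnmt3a. Tcf15 (chromosome 2, 152143561 to 152149097), a helix-loop-helix factor of cells primed for differentiation, was at 42.0, 48.0 and 38.1 CPM in vehicle and 24.5, 24.7 and 25.4 CPM with VB6. The VB6 libraries were nearly level and all below the vehicle arm (-0.78 ± 0.10, adjusted p = 0.000166, edgeR). Pou3f1, the epiblast and neural factor Oct6, was at 194, 235 and 222 CPM against 130, 130 and 147 CPM (-0.68 ± 0.09, adjusted p = 0.000207). Lef1, a nuclear effector of Wnt signalling, fell from 55.2 ± 8.85 to 29.2 ± 1.47 CPM (-0.91 ± 0.13) and the de novo methyltransferase Dnmt3a from 508 ± 37.1 to 379 ± 17.7 CPM (-0.42 ± 0.06). Fgf5, Otx2 and Dnmt3b, 3 other epiblast genes, had values of -0.11, -0.11 and -0.12, and their arms overlapped.

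The direction relative to ES cells differed between these lists. Medians over ES cells were -2.36 in vehicle and -2.67 with VB6 for the naive list, and 3.27 and 2.52 for the formative list. For general pluripotency genes they were 0.32 and -0.11. Both values of each pair share the ES libraries. The 2 medians of a list can fall on different members, so their gap is not the change between the arms. The median change between the arms was -0.38 (naive), -0.26 (formative) and -0.32 (general). Formative genes that had risen from ES cells, such as Lef1 (5.08 ± 0.753 CPM in ES cells), were thus less far above ES cells with VB6, and naive genes such as Tcl1 (67.8 ± 6.95 CPM in ES cells) further below them. Leaving out 1 library cut the 8 general pluripotency calls to 2, 3 and 2 (VB6 replicate 1, VB6 replicate 2 and vehicle replicate 2), and the 5 naive calls to 3 for each VB6 replicate and vehicle replicate 2. The formative count stayed at 5 to 7. With any 1 library left out, the median of VB6 minus vehicle was -0.27 to -0.34 (general), -0.33 to -0.46 (naive) and -0.21 to -0.31 (formative). Limma on log2(TPM + 0.5) called 2 general, 2 naive and 5 formative genes.

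Targets and feedback inhibitors of FGF and ERK signalling were lower. Of 14 tested, 0 were higher and 6 lower, against 1.49% and 2.77% of all genes. All 14 values were negative, and the median was -0.31. Spry4, an intracellular inhibitor of the pathway, was at 52.9, 56.4 and 51.9 CPM in vehicle and 35.7, 32.8 and 42.2 CPM with VB6, without overlap (-0.54 ± 0.10, adjusted p = 0.00301, edgeR). The ETS factors Etv1 (38.0 ± 2.56 to 25.6 ± 3.12 CPM) and Etv4 (34.9 ± 4.54 to 23.9 ± 1.51 CPM) fell by a log2 of 0.57 and 0.55, and the ERK phosphatase Dusp4 by 0.33. The immediate ERK target Egr1 had a value of -0.08 with overlapping arms. The 6 calls became 1 and 2 without VB6 replicates 1 and 2, and 2 and 3 without vehicle replicates 2 and 3. The list median was -0.26 to -0.36 with any 1 library left out.

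Nodal signalling directs endoderm and mesoderm formation. Against 1.49% higher and 2.77% lower among all genes, 0 of its 13 genes were higher and 4 lower (median -0.25). Besides Cripto these were Pcsk6, a convertase that processes Nodal (24.1 ± 2.68 to 15.8 ± 1.05 CPM, -0.60 ± 0.11), Smad7, an inhibitor of the receptors (48.6 ± 7.63 to 33.3 ± 1.45 CPM, -0.55 ± 0.11), and Lefty2, a secreted antagonist (87.7 ± 3.87 to 67.1 ± 2.92 CPM, -0.38 ± 0.10). Nodal itself had a value of -0.30 and was not called. Without vehicle replicate 2 the count was 2. Of 8 genes of the Myc family, Myc (38.3 ± 3.92 to 24.4 ± 4.19 CPM, -0.65 ± 0.12) and Mycn (126 ± 16.0 to 91.6 ± 9.04 CPM, -0.46 ± 0.11) fell and 0 rose. The call of Mycn ended without VB6 replicates 1 or 2 or vehicle replicate 2.

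Regulators of DNA methylation overlapped with these lists. Of 9 genes, 0 were higher and 3 lower (median -0.15), against 1.49% and 2.77% of all genes. The 3 were Dnmt3l and Dnmt3a, given above, and Tet2, a 5-methylcytosine dioxygenase. Tet2 was at 47.6, 41.9 and 45.1 CPM in vehicle and 28.9, 29.7 and 24.6 CPM with VB6 (-0.70 ± 0.12, adjusted p = 0.00207, edgeR). All VB6 libraries were below all vehicle libraries, and the count of 3 was the same whichever library was left out. The maintenance enzyme Dnmt1 (-0.15) and Dnmt3b were not called. Jarid2, a cofactor of the Polycomb complex PRC2, fell from 388 ± 24.7 to 295 ± 4.87 CPM (-0.40 ± 0.06) as the only 1 of 12 Polycomb genes called. Of 16 imprinted genes 2 were lower and 0 higher (12.5% called, against 4.26% of all genes), with a median of -0.06. Cdkn1c, which encodes a cyclin-dependent kinase inhibitor, fell from 61.7 ± 5.90 to 38.7 ± 1.15 CPM (-0.67 ± 0.10). The other, Peg10 (-0.27), lost its call whichever of the 6 libraries was left out.

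Genes of the amino acid response were lower with VB6. ATF4, a transcription factor whose translation increases when amino acids are short or the endoplasmic reticulum is stressed, induces amino acid transporters, synthetic enzymes and its own regulators. Of 24 genes in its list, 0 were higher and 13 lower, against 1.49% and 2.77% of all genes, and the median was -0.31. Several genes of the list are known to carry an ATF4 binding element, called CARE, near their start. A share of matches above that of all promoters is therefore no result of these data. The search is a description, and a link between match and day 3 change was not tested. The motif searched was TGATGNAAN on both strands, which reads NTTNCATCA on the other strand, in 250 bases before to 50 bases after each start. It was present in 3.95% of all 32851 RefSeq promoters (GRCm38.p6, the assembly of mm10) and in 8 of the 24 promoters of the ATF4 list. Counted by gene, 4.5% of 27025 genes and 8 of the 20 list members in that table had it. List members absent from that table were not searched, so the counts that follow are not shares of members searched. Of the 13 called members 5 had a match, and of the 11 not called Slc7a11 (2 matches), Nupr1 and Vldlr. Those of the called members are printed here with the match in capitals, 5′ to 3′ on the strand of the gene, so that the element beside each value below can be seen.
Chac1, chr2:119351038-119351066, plus strand: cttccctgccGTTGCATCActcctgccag
Atf3, chr1:191183426-191183454, minus strand: ccttctcgcaCTTGCATCAccaagtccgc
Trib3, chr2:152344029-152344057, minus strand: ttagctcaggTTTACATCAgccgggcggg
Asns, chr6:7693214-7693242, minus strand: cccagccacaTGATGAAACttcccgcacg
Pck2, chr14:55540152-55540180, plus strand: agccttcaaaGTTACATCAgtatcttaca

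Of the ATF4 list's amino acid transporters, Slc7a1, Slc7a5 and Slc7a3 were called and Slc7a11 was not. Slc7a1 (chromosome 5, 148327410 to 148399904), which imports arginine and lysine, was at 68.2, 72.1 and 58.2 CPM in vehicle and 41.3, 46.5 and 47.0 CPM with VB6. All VB6 libraries were below the lowest vehicle library (-0.56 ± 0.07, adjusted p = 0.000166, edgeR), and the call held under each of the 16 alternatives. Slc7a5, which imports leucine and other large neutral amino acids, was at 159, 181 and 160 CPM against 123, 132 and 135 CPM (-0.36 ± 0.07, adjusted p = 0.00444). Slc7a3, a further cationic amino acid transporter, was at 154 ± 8.25 and 127 ± 6.86 CPM (-0.28 ± 0.08). Slc7a11, the cystine importer, whose promoter also holds the motif, had overlapping arms and a value of -0.24.

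Among the regulators of the response, Atf4, Atf3, Atf5 and Trib3 were called and Ddit3 was not. Atf4 itself was at 153, 158 and 143 CPM in vehicle and 122, 129 and 126 CPM with VB6 (-0.26 ± 0.07, adjusted p = 0.0306, edgeR). Of the genes with a printed element, Chac1, which degrades glutathione, was at 10.3, 10.8 and 9.90 CPM against 5.11, 6.98 and 6.33 CPM (-0.74 ± 0.16, adjusted p = 0.00998). The arms of both genes were apart. Atf3, a stress-induced repressor, was at 3.75 ± 0.588 and 2.32 ± 0.465 CPM (-0.71 ± 0.17), and Trib3, a pseudokinase that inhibits ATF4, at 16.2 ± 1.78 and 10.9 ± 1.48 CPM (-0.56 ± 0.13). Atf5, a related factor, was at 16.8 ± 1.72 and 10.7 ± 1.33 CPM (-0.65 ± 0.14), and Stc2, a secreted glycoprotein, at 31.8 ± 2.62 and 20.5 ± 1.67 CPM (-0.63 ± 0.11). Ddit3, which encodes the stress factor CHOP, had overlapping arms at 12.6 ± 3.04 and 13.7 ± 2.77 CPM.

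Among the enzymes, Asns, asparagine synthetase, was at 192, 206 and 200 CPM in vehicle and 175, 173 and 174 CPM with VB6, a small difference without overlap (-0.20 ± 0.05, adjusted p = 0.0200, edgeR). Pck2, the mitochondrial PEP carboxykinase, was at 43.7 ± 5.45 and 34.4 ± 1.67 CPM (-0.34 ± 0.09), and Mthfd2, of mitochondrial folate metabolism, at 83.1 ± 4.70 and 64.0 ± 5.75 CPM (-0.37 ± 0.07). The serine synthesis enzymes Phgdh and Psat1 had values of -0.04 and -0.13 and were not called. Of 12 unfolded protein response genes 1 was lower and 0 were higher (8.33% called, against 4.26% of all genes). The 1 was Herpud1, which acts in degradation from the endoplasmic reticulum. Leaving out 1 library took the 13 calls to 4, 7 and 6 (VB6 replicates 1, 2 and 3) and to 4 and 8 (vehicle replicates 2 and 3), against 11 without vehicle replicate 1. Over all genes the same omissions left 253, 294 and 398, then 192 and 366, against 850. The list median was -0.24 to -0.36 with any 1 library left out. Limma on log2(TPM + 0.5) called 6 of the list.

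**Figure D3:**
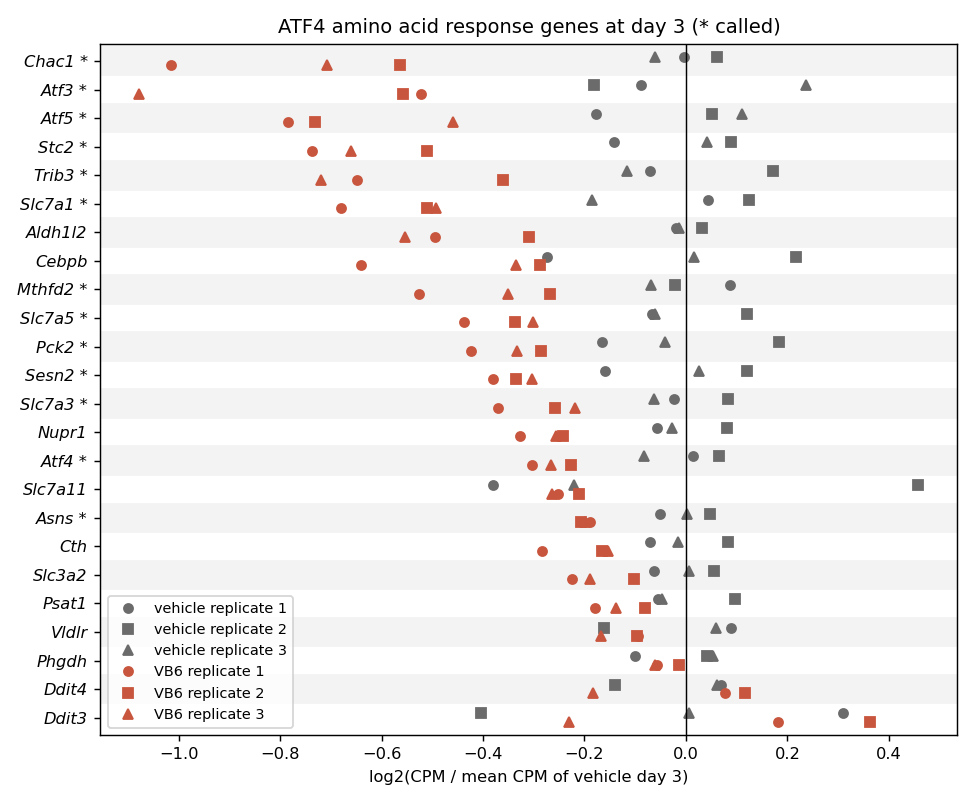
Log2 of CPM over the mean CPM of vehicle day 3 for the 24 genes of the ATF4 list, by library, grey for vehicle and red for VB6, with a marker shape per replicate and an asterisk for each of the 13 called genes. All 13 called genes lay lower with VB6 in every library, and Vldlr, Slc7a11, Phgdh, Ddit4 and Ddit3 had overlapping arms.

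Genes of the actin cytoskeleton and of the basement membrane were read as separate lists. Of 13 actin and SRF target genes tested, 4 were higher and 0 lower, against 1.49% and 2.77% of all genes. All 13 values were positive and the median was 0.24. Ccn2, a matricellular protein induced by YAP and SRF (chromosome 10, 24595442 to 24598683), was at 25.4, 28.4 and 28.2 CPM in vehicle and 40.5, 39.7 and 36.5 CPM with VB6, without overlap (0.51 ± 0.08, adjusted p = 0.000702, edgeR). Its relative Ccn1 rose from 9.88 ± 1.29 to 14.2 ± 1.83 CPM (0.51 ± 0.11), and tropomyosin Tpm1 from 90.0 ± 2.24 to 115 ± 2.65 CPM (0.35 ± 0.06). With Myl9, given above, these were the 4, and 3 or 4 remained with any 1 library left out. Acta2, smooth muscle actin, was near the detection limit at 0.15 ± 0.0803 and 0.249 ± 0.243 CPM.

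Of 13 basement membrane genes, 0 were higher and 6 lower, against 1.49% and 2.77% of all genes. All 13 values were negative and the median was -0.30. Fn1, fibronectin, was at 451, 518 and 503 CPM in vehicle and 378, 393 and 368 CPM with VB6 (-0.37 ± 0.07, adjusted p = 0.00255, edgeR). Col4a1, a chain of type IV collagen, was at 239, 331 and 354 CPM against 204, 223 and 221 CPM (-0.51 ± 0.11, adjusted p = 0.0130), with vehicle replicate 1 near the VB6 arm. Its partner Col4a2 had values of 188 ± 28.4 and 138 ± 1.72 CPM (-0.44 ± 0.10), and Nid2, a nidogen, 322 ± 33.3 and 256 ± 11.3 CPM (-0.33 ± 0.08). The laminins Lamb1 and Lamc1 had values of -0.08 and -0.07 with overlapping arms. After correction for GC content and length the list median was -0.10 with 5 calls. Leaving out VB6 replicates 1, 2 and 3 gave 1, 3 and 2 calls and vehicle replicates 2 and 3 gave 1 each, with a median of -0.19 without vehicle replicate 3.

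Of 16 epithelial and mesenchymal genes 2 were higher and 3 lower, against 1.49% and 2.77% of all genes. The claudins Cldn6 and Cldn7 rose, Cldn6 from 111 ± 9.21 to 145 ± 7.10 CPM (0.38 ± 0.06) and Cldn7 from 23.3 ± 2.16 to 30.1 ± 0.549 CPM (0.37 ± 0.09). Vim, vimentin, was at 56.2, 56.6 and 66.3 CPM in vehicle and 39.6, 44.3 and 39.8 CPM with VB6 (-0.53 ± 0.11), and Zeb1, a repressor of epithelial genes, at 5.18, 5.30 and 5.11 CPM against 2.44, 2.70 and 3.46 CPM (-0.85 ± 0.17). Neither pair of arms overlapped. Fn1 was the remaining call. Cdh1 and Cdh2, the cadherins that define the 2 states, had values of 0.01 and -0.01 with overlapping arms.

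The question of the series concerns endoderm. Of 17 visceral endoderm and hepatic genes tested, 3 were higher and 0 lower (median 0.23), against 1.49% and 2.77% of all genes. The median was 0.09 without vehicle replicate 2, 0.14 without VB6 replicate 3, 0.41 without vehicle replicate 3, 0.11 with only the 6 libraries and 0.03 with limma on log2(TPM + 0.5), and 1 member was called lower after correction for GC content and length and without vehicle replicate 1. Apoa1, an apolipoprotein, was at 1.35, 0.783 and 0.790 CPM in vehicle and 1.96, 2.41 and 2.72 CPM with VB6 (1.29 ± 0.27, adjusted p = 0.00880, edgeR). Ttr, transthyretin, was at 11.4, 7.70 and 8.84 CPM against 13.5, 12.1 and 14.9 CPM (0.54 ± 0.14, adjusted p = 0.0254), and Apob at 80.6, 66.2 and 83.6 CPM against 90.5, 95.1 and 109 CPM (0.35 ± 0.10, adjusted p = 0.0486). In each the highest vehicle library lay close to the lowest VB6 library, without overlap. Afp, alpha-fetoprotein, was at 1.18, 0.421 and 1.16 CPM against 2.50, 1.83 and 2.13 CPM and missed the threshold (1.19 ± 0.38, adjusted p = 0.0807). Cubn and Hnf4a, also of visceral endoderm, had values of -0.01 and 0.10. No member of the 3 stayed called without vehicle replicate 2 or vehicle replicate 3, and 1 did without VB6 replicate 1 or VB6 replicate 3. The call of Apob ended whichever of the 6 libraries was left out.

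Definitive endoderm factors did not pass. Sox17 was at 3.94, 4.39 and 5.26 CPM in vehicle and 2.67, 3.51 and 3.86 CPM with VB6 (-0.43 ± 0.18, adjusted p = 0.174, edgeR). Foxa2 was at 5.05 ± 0.548 and 4.28 ± 0.373 CPM, and Cxcr4 at 1.16 ± 0.116 and 1.26 ± 0.376 CPM. The arms did not overlap for Sox17 and overlapped for the other two. Of 14 definitive endoderm genes 1, the claudin Cldn6, was higher and 0 lower (7.14% called, against 4.26% of all genes). The list went both ways, with 8 positive and 6 negative values and a median of 0.05. Of 9 primitive streak genes and 11 mesoderm genes 0 were called with edgeR, and DESeq2 and limma called 0 of either. At an unadjusted p under 0.05 there were 2 and 4, against 3750 of all 18901 genes. The medians of these 2 lists were 0.25 and -0.35, and 0.21 and -0.05 with limma on log2(TPM + 0.5). Eomes, which specifies endoderm, was at 31.4 ± 3.20 and 30.0 ± 1.75 CPM. Gata4 and Gata6, shared by all endoderm types, had values of 0.06 and -0.32 with overlapping arms. In the primitive and parietal endoderm list 0 of 12 were higher and 3 lower, and those 3 were the matrix genes Col4a1, Col4a2 and Lama1. None of these 3 stayed called without VB6 replicate 1, vehicle replicate 2 or vehicle replicate 3, and 1 did without VB6 replicates 2 or 3.

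**Figure D4:**
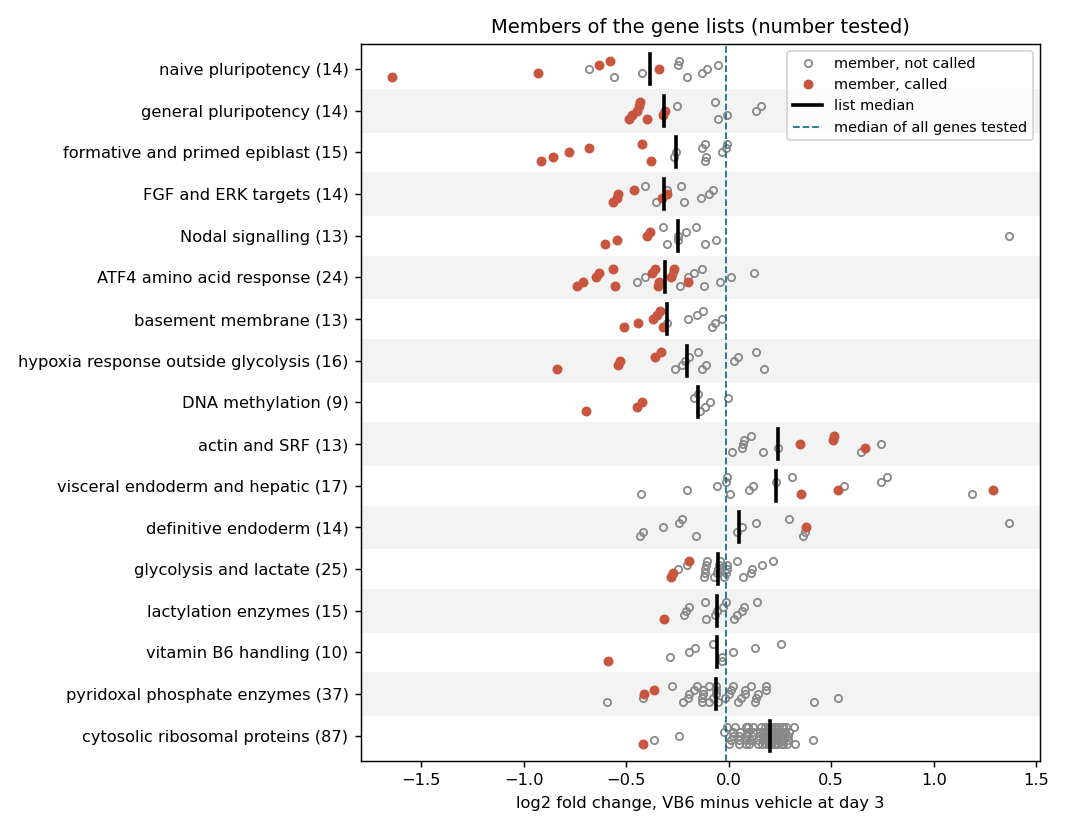
Log2 fold change (VB6 minus vehicle at day 3) of each tested member of 17 gene lists, with called members in red, list medians as black bars and the median of all 18901 genes (-0.01) as a dashed line. Some genes belong to more than 1 list. The pluripotency, ATF4 and basement membrane medians lay at -0.26 to -0.38, and the actin and visceral endoderm medians at 0.24 and 0.23.

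Glycolysis, the route named in the series title, showed small differences. Of 25 genes 0 were higher and 3 lower (12% called, against 4.26% of all genes), with a median of -0.05. The calls were 7 with only the 6 libraries (2104 of 16536 over all genes) and 1 with limma on log2(TPM + 0.5) (253 of 18901). Hk2, hexokinase 2, was at 353, 356 and 360 CPM in vehicle and 302, 322 and 311 CPM with VB6 (-0.19 ± 0.05, adjusted p = 0.0314, edgeR). The phosphofructokinase Pfkp was at 358 ± 11.8 and 297 ± 16.7 CPM (-0.27 ± 0.07). Pfkfb3, which makes an activator of phosphofructokinase, was at 82.1 ± 5.12 and 67.5 ± 8.43 CPM (-0.28 ± 0.08). Ldha, which makes lactate, was at 2332, 2220 and 2288 CPM against 2076, 2192 and 2053 CPM, without overlap, and did not pass (-0.11 ± 0.05, adjusted p = 0.183). Ldhb (0.16 ± 0.07), Pkm (-0.10 ± 0.06), Pdk1 (-0.07 ± 0.05), the glucose transporter Slc2a1 (0.04 ± 0.06) and the lactate transporters Slc16a1 (0.22 ± 0.07) and Slc16a3 (-0.20 ± 0.08) were not called. The calls of Hk2 and Pfkfb3 ended whichever single VB6 or vehicle library was left out, apart from VB6 replicate 2 for Pfkfb3, and that of Pfkp without VB6 replicates 1 and 3 and vehicle replicates 2 and 3.

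Of 15 enzymes that add, remove or supply lactyl groups, 1 was lower and 0 higher (6.67% called, against 4.26% of all genes). Aars1, alanyl-tRNA synthetase, which can also transfer lactate to lysines, was at 429, 482 and 453 CPM in vehicle and 351, 370 and 375 CPM with VB6 (-0.32 ± 0.06, adjusted p = 0.00727, edgeR). Its arms did not overlap, and the call ended without VB6 replicate 1 or vehicle replicate 2. Ep300, the acyltransferase p300, was at 235 ± 14.0 and 230 ± 4.43 CPM, and Aars2, Hdac1, Hdac2 and Hdac3 had values of -0.21, -0.11, 0.07 and 0.08, all with overlapping arms. Hypoxia genes outside glycolysis were lower in 5 of 16 cases and higher in 0 (median -0.20), against 2.77% and 1.49% of all genes. Vegfa, an endothelial growth factor, fell from 58.1 ± 7.89 to 40.0 ± 5.26 CPM (-0.54 ± 0.10) and Adm, adrenomedullin, from 20.9 ± 4.10 to 11.8 ± 2.36 CPM (-0.83 ± 0.17). Without VB6 replicate 3 or vehicle replicate 3 the count was 2.

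For the handling of the vitamin itself the list was small, so 1 call does not tell it from all genes. Of 10 genes 1 was lower and 0 higher (10% called, against 4.26% of all genes). Alpl, tissue-nonspecific alkaline phosphatase, which frees pyridoxal from its phosphate outside the cell and is also a marker of pluripotent cells, was at 76.0, 89.0 and 85.9 CPM in vehicle and 56.1, 59.7 and 51.0 CPM with VB6. All VB6 libraries were below all vehicle libraries (-0.59 ± 0.10, adjusted p = 0.00215, edgeR), also with any 1 library left out. Pdxk, pyridoxal kinase, was at 38.9 ± 2.18 and 37.0 ± 1.6 CPM with overlapping arms. The phosphatase Pdxp was at 24.6 ± 1.17 and 20.2 ± 0.249 CPM with separate arms, and was not called. The solute carrier genes Slc19a2 and Slc19a3 and the carrier protein gene Plpbp had values of -0.03, 0.13 and 0.02. Uptake of the vitamin was not measured. Of 37 tested pyridoxal phosphate enzymes, 0 were higher and 2 lower (5.41%, near the 4.26% of all genes). After correction for GC content and length 6 were called, against 1178 of 17193 over all genes. The 2 in the main fit were Bcat1, which transaminates branched-chain amino acids (168 ± 9.29 to 130 ± 6.66 CPM, -0.36 ± 0.08), and Shmt2, mitochondrial serine hydroxymethyltransferase (174 ± 12.7 to 131 ± 6.72 CPM, -0.41 ± 0.09). Neither stayed called without VB6 replicate 1 or vehicle replicate 2, and Shmt2 did not without VB6 replicate 3.

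Of 87 cytosolic ribosomal protein genes, 82 had positive values, with a median of 0.20 (0.06 after correction for GC content and length), while 0 were called higher and 1, Rpl10l, a retrocopy whose reads may be shared with Rpl10, was called lower. The calls in either direction were 54 without the filter and 61 with only the 6 libraries. The share of reads in these genes did not overlap between the arms. Oxidative phosphorylation (30 nuclear genes), cholesterol synthesis and uptake (24) and mitosis (15) had 0 calls with edgeR. At an unadjusted p under 0.05 they had 7, 6 and 3 genes, against 3750 of all 18901 genes. DESeq2 called 1, 0 and 0, and limma on log2(TPM + 0.5) called 1, 0 and 0. Other edgeR settings called 4, 4 and 2 with only the 6 libraries, 2, 3 and 0 without the filter, and 2, 0 and 1 after correction for GC content and length. Over all genes these 3 settings called 2104 of 16536, 1393 of 43503 and 1178 of 17193. Interferon and antigen presentation genes went both ways, with B2m (18.0 ± 3.03 to 24.5 ± 0.744 CPM) and Bst2 higher and Irgm1 (24.3 ± 2.22 to 17.0 ± 2.49 CPM) and Irf1 lower of 14. None of the 4 stayed called without VB6 replicates 1 or 2 or vehicle replicate 2, and 1 did without VB6 replicate 3 or vehicle replicate 3.

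Position along the course of the vehicle culture was read on a single axis over all tested genes, from ES cells (0) to vehicle day 7 (1). None of the libraries that set the axis is in the comparison. The vehicle libraries of day 3 were at 0.438, 0.434 and 0.441 and the VB6 libraries at 0.463, 0.463 and 0.476. The arms did not overlap, with means of 0.438 ± 0.00362 and 0.467 ± 0.00788 and a difference of 0.0295. The exact two-sided permutation test gave p = 0.10, the smallest that 3 against 3 libraries allow. Leaving out 1 library gave differences of 0.0249 to 0.0318, and 0.0298 without vehicle replicate 1.

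Whether the day 3 difference was also seen later was tested as the difference at day 3 minus the mean difference at days 5 and 7. Of 18901 genes 3232 passed (17.1%), 1292 higher (6.84%) and 1940 lower (10.3%). Of the 281 genes higher at day 3, 88 were called higher and 113 lower at day 5, and 81 and 78 at day 7. Of the 524 lower at day 3, 272 were called higher and 99 lower at day 5, and 91 and 161 at day 7. At day 5 56.7% of all genes were called (31.2% higher and 25.5% lower), and at day 7 36.5% (18.6% and 17.9%). In those comparisons the vehicle day 5 libraries (221 to 238 nt) and the VB6 day 7 libraries (261 to 276 nt) had shorter fragments than the opposite arm. Treatment and fragment length cannot be told apart at either later day.

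For single groups the values at the 3 days stood as follows. The ATF4 list had medians of -0.31, 0.34 and -0.27 at days 3, 5 and 7. The naive list had -0.38, 0.48 and 0.13, and the basement membrane list -0.30, 0.66 and 0.20. Visceral endoderm genes had 0.23, 1.14 and 0.03, and actin and SRF genes 0.24, 0.71 and -0.11. Of these, the test of day 3 against the mean of days 5 and 7 called 16 of 24 ATF4 genes, 10 of 14 naive genes and all 13 basement membrane genes. Each was lower at day 3 than that mean, which does not place day 3 below each later day. At day 7 alone 12 ATF4 genes were called lower and 5 higher with VB6, against 4 and 15 at day 5. The test against the mean called 3 of 17 visceral endoderm genes lower and 0 higher, and 2 of 13 actin and SRF genes higher and 2 lower. Over the whole table this test called 2035 genes after correction for GC content and length, of which 1402 were among the 3232.

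**Figure D5:**
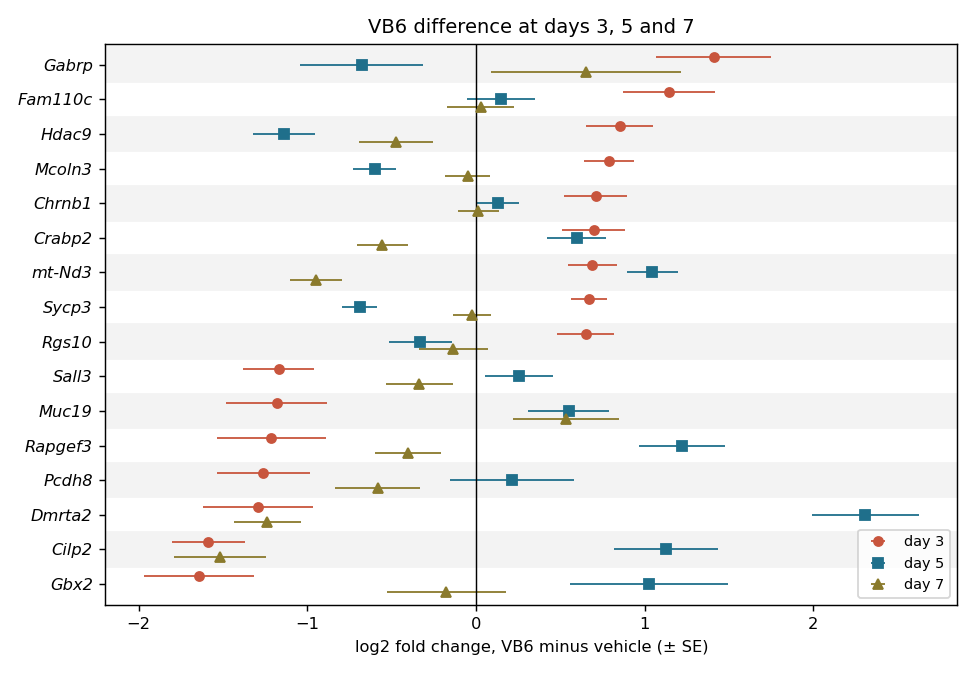
Log2 fold change (VB6 minus vehicle, ± SE, 3 libraries per group) at days 3, 5 and 7 for the 16 genes among the largest day 3 changes whose day 3 value differed from the mean of the later days. Hdac9 was at 0.85, -1.14 and -0.47, and Dmrta2 at -1.29, 2.31 and -1.24, at days when the arms differed in fragment length.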

How the data were processed

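RNA from 21 libraries was compared, of which the 3 vehicle and 3 VB6 libraries of day 3 form the comparison, grouped by the labels' titles. The authors deposited expected counts (estimated counts per gene, not normalized), TPM and FPKM for 78317 gene rows, 21909 of them without a symbol. The deposited TPM served as an alternative scale, and the deposited FPKM only to derive fragment length over 578 genes. The genome build was mm10, per the submitters' processing notes. No aligner, counting program, annotation release or strand setting is given in the sources used here, and the labels' protocol speaks of both total RNA and small RNA enrichment. Gene IDs were matched to GENCODE M21 (mm10), and 26781 IDs without a match held 1.90% of the counts.

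Expected counts were rounded, which changed the sum by 0.000245%. The design had been written for counts, and its test was kept. Genes passing filterByExpr were tested with edgeR 4.0.16 (TMM, quasi-likelihood, a mean per group, R 4.3.3), and each SE is the size of the log2 fold change over the square root of F. On data simulated for this comparison (18901 genes), the test recovered 72% of the 100 genes set to a log2 change of 1 and 44% of the 100 set to 0.5, with 8 false calls. Alternatives were DESeq2 1.42.0, its size factors, no filter, a filter of CPM of at least 1 in 3 libraries, a GC and length correction (17193 genes), limma 3.58.1 on log2(TPM + 0.5), a replicate block, fewer groups, a fold of 1.2 and leaving out each library.

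Named genes were the 12 highest and 12 lowest log2 fold changes (called, protein-coding, not predicted, at least 1 CPM on average in the higher arm, arms not overlapping), the 8 smallest p, the 8 most abundant called, up to 4 members per list with the smallest p, and genes of endoderm, pluripotency, glycolysis, lactylation and vitamin B6. The other members named, among them Chac1, Trib3, Asns, Pck2, Atf4, Atf5, Slc7a3, Slc7a11, Ddit3, Ddit4, Vldlr, Phgdh, Psat1, Esrrb, Cldn7, Herpud1 and those named as not called, were chosen after their values were seen. The members and lists were chosen with earlier results of these data known. Figures were drawn with matplotlib from the same tables.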

Additional observations from a re-analysis of the deposited data

Results flagged for a closer look

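Among the 24 genes with the largest called changes at day 3, 16 had a VB6 difference at day 3 that differed from the mean difference at days 5 and 7 (edgeR, interaction contrast, adjusted p under 0.05, as for 17.1% of all genes). The log2 value of day 3 minus later was 1.42 for Gabrp (adjusted p = 0.0496), 1.05 for Fam110c, 1.66 for Hdac9, 1.11 for Mcoln3, 0.64 for Chrnb1, 0.68 for Crabp2, 0.64 for mt-Nd3, 1.03 for Sycp3 and 0.88 for Rgs10. It was -2.07 for Gbx2, -1.39 for Cilp2, -1.83 for Dmrta2, -1.08 for Pcdh8, -1.62 for Rapgef3, -1.72 for Muc19 and -1.13 for Sall3. The sign of each followed its day 3 change. Day 3 values chose these genes and enter the contrast, so the count is a description. Fragment length differed between the arms at both later days, and its part was not tested.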

How the results depend on the processing

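The 805 genes called at day 3 became 1393 without a filter, 2104 with only the 6 day 3 libraries, 253 with limma on log2(TPM + 0.5) and 53 in the test against a fold of 1.2. With 1 library left out the count ran from 192 to 850. The 3232 genes called for day 3 against the later days became 2035 after the GC and length correction, 1589 with limma on log2(TPM + 0.5) and 441 in the test against a fold of 1.2, and 1906 to 3457 with 1 library left out. The cause of these changes was not tested, except that a left-out library leaves fewer samples. The position difference at day 3 was 0.0459 on an axis to vehicle day 5, 0.0299 with the stricter filter and 0.0319 after the correction, and 0.0249 to 0.0318 with 1 library left out, where the exact test cannot go below p = 0.20. Of 115 named genes called, 20 stayed called under all 16 alternatives and 45 with each library left out in turn. Lifr, called lower, had a log2 value of 0.20 with limma on log2(TPM + 0.5). With the replicate block, which took the replicate numbers as pairs, 599 genes were called at day 3, 559 of them among the 805, and 2892 for day 3 against later. Same-numbered libraries of the arms did not deviate together (r = -0.033, -0.083 and -0.016), so the numbers are not taken as pairs. On simulated data of this design, 44% of log2 changes of 0.5 were recovered, so smaller changes can go undetected.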
